A study of Homo sapiens with 4 samples.

Results

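The genes described here, called core genes below, mostly encode core proteins of the spliceosome. They were taken by name as the protein-coding genes whose symbols begin with SNRP, U2AF, or SF3A or SF3B and a number, PRPF and a number, or LSM and a number. Of the 58302 genes listed in the deposited tables, 50 matched, and 48 of these had a mean of 10 or more reads over the libraries and were carried into the comparison. The other 2, SNRPN and U2AF1, had between 0 and 2 reads in every library and were not tested. The name rule also takes in LSM genes that act outside splicing, and it leaves out spliceosome proteins with other names. Both are described below.

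RNA was sequenced from NCI-H838 cells, a human lung cancer cell line, in which Cas9 and a guide RNA against MIB1 had been integrated with a piggyBac transposon (MIB1-iKO cells). MIB1 is an E3 ubiquitin ligase. The 2 no dox samples carried the same integrated construct as the 2 dox samples, and only the latter received doxycycline, at 0.5 µg/mL for 3 days, which switches Cas9 on. The study asked how loss of MIB1 alters gene expression. According to the study's methods the MIB1 line was cloned from single cells after puromycin selection. The comparison holds no cells with an induced Cas9 and another guide, so loss of MIB1, doxycycline and Cas9 cutting cannot be told apart. The study calls the replicates of each condition biological, and neither it nor the labels say how separately they were grown, so the p-values measure the spread between these samples only.

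Total counts ran from 15943025 to 24398411 reads per library and were lower in both dox libraries. For MIB1 the no dox libraries held 598 and 588 reads and those with dox 90 and 59 (log2 difference -2.58 ± 0.23, SE; adjusted p = 0.000375 by limma), so the reads of the targeted gene followed the labels. Of the epithelial markers, EPCAM was listed at 9.70 and 9.75 RPKM without dox and at 10.2 and 10.9 with dox. The lung lineage markers NKX2-1 and SFTPB had 0 reads in all 4 libraries, NAPSA had 2 to 8 and SFTPC 3 to 8, so the labelled tissue of origin was not marked by these genes. The leukocyte marker PTPRC had 0 reads, and the endothelial markers PECAM1 and CDH5 had at most 10. Of the mesenchymal and fibroblast markers, VIM was at 34.5 to 43.3 RPKM, COL1A1 had 22 to 89 reads, DCN had at most 3, and CDH2 and COL1A2 had 0.

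Splicing removes introns from pre-mRNA. The spliceosome that does this is built from small nuclear ribonucleoprotein particles (snRNPs), each of which is an RNA (U1, U2, U4, U5 or U6) with its proteins. The U1 snRNP reads the start of the intron, U2AF reads its end, and the U2 snRNP, with the SF3a and SF3b complexes, settles on the branch point. The U4/U6 and U5 snRNPs then join as a tri-snRNP, and PRPF proteins take part in the rearrangements that bring the reacting ends together. U1, U2, U4 and U5 RNAs each wear a ring of Sm proteins, and U6 RNA wears a related ring of LSM proteins.

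Many spliceosome genes have been copied back into the genome as processed pseudogenes, and the reads of these libraries were single-end and 50 bases long. Every 50-base window of each gene's representative spliced transcript was therefore searched in the human genome (GRCh38, both strands, exact matches). In 22 of the 48 tested genes no window was found outside the gene itself, and in 40 fewer than 10% of windows were. The share was 50% or more in 3 tested genes, at 79.0% in LSM12, 59.8% in SNRPA1 and 54.1% in SNRPG, and it was 64.6% in the untested U2AF1. The 3 windows below are printed because a read from any of them fits at least 2 places in the genome equally well. The letters are those of the reference, 5′ to 3′ on the strand of the gene. Lower case marks the exon in which a window starts and capitals mark bases of the next exon.
U2AF1, within exon 2 at chr21:43104353-43104402 (minus strand), also at chr21:6496031-6496080: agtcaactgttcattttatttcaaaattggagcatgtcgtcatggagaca
SNRPA1, exon 1 at chr15:101295097-101295121 joined to exon 2 at chr15:101293148-101293172 (minus strand), also without an intron at chr2:113657965-113658014 in SNRPA1P1: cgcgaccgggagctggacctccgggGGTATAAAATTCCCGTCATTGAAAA
SNRPG, exon 2 at chr2:70289350-70289353 joined to exon 3 at chr2:70288147-70288192 (minus strand), also without an intron at chr19:14489439-14489488 in SNRPGP15: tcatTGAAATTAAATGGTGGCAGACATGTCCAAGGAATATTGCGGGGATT

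U2AF1 encodes the small subunit of U2AF, which contacts the AG at the end of the intron. It lies at chr21:43092956-43107570, and 61.7% of its windows were also found between chr21:6484623 and chr21:6499236, under a gene that GENCODE marks as an artificial duplication of the assembly. U2AF1 was listed with 1 read in no dox replicate 1 and 0 reads in the other 3 libraries. A count of 0 allows up to 3 reads, for counting error only. The duplicate gene held 10 and 7 reads without dox, against 3 and 12 with it. How reads that fit both places were counted is not given in the sources used here, so the level of U2AF1 in these cells cannot be read from these tables.

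At some of the other genes with shared windows, reads were listed both at the gene and at pseudogenes named after it. LSM12 had 110, 128, 97 and 97 reads in no dox 1, no dox 2, dox 1 and dox 2, and its pseudogene LSM12P1 had 360, 347, 205 and 218. More reads were therefore listed at the pseudogene than at the gene in every library. SNRPA1, which encodes a U2 snRNP protein, had 239, 234, 156 and 196 reads, against 178, 183, 113 and 143 at SNRPA1P1. For SNRPG, 11 of its 20 named pseudogenes held a read, and together they held between 13.9% and 16.5% of the reads of the gene and its pseudogenes. The shares were 12.7% to 14.5% for SNRPE, 15% to 16.1% for SNRPF and 17.1% to 18.5% for SF3A3. Values of LSM12, SNRPA1 and SNRPG are accordingly uncertain below, and those of SNRPE, SNRPF and SF3A3 carry the same limit.

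**Figure D1:**
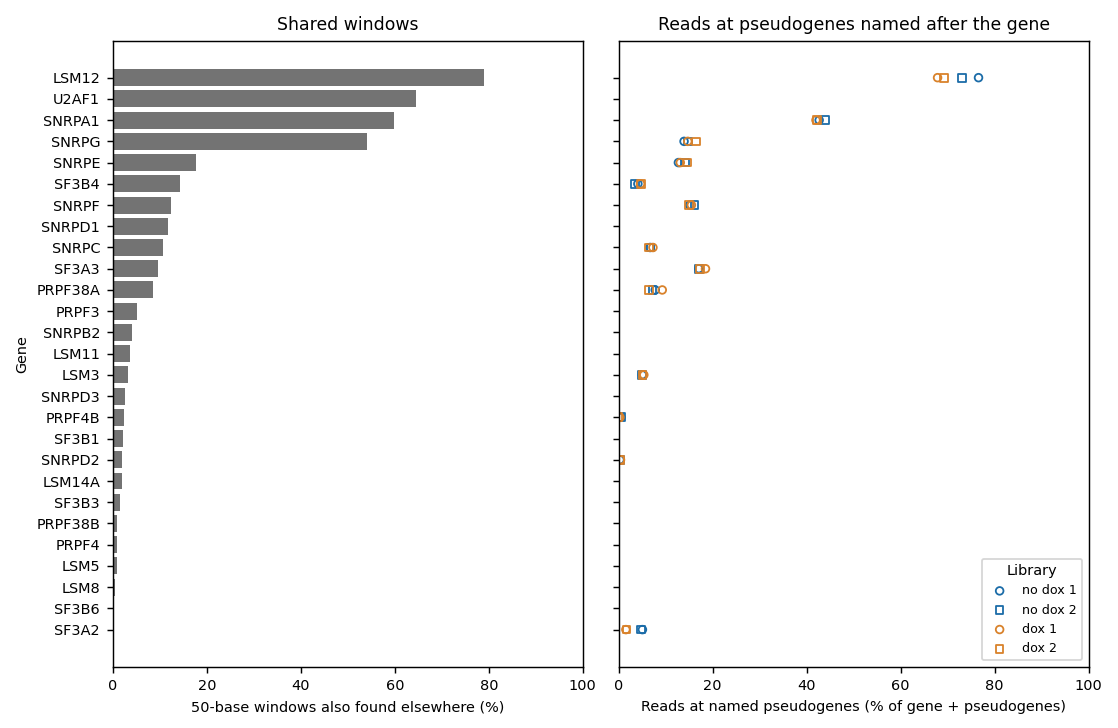
Left, the percentage of 50-base windows of each gene's transcript that also occur elsewhere in the genome, for the genes with any such window. Right, the reads at pseudogenes named after the gene as a percentage of the reads at the gene and those pseudogenes, 1 point per library (blue, no dox; orange, dox; circle, replicate 1; square, replicate 2), for genes whose pseudogenes held a read; LSM12 runs from 67.9% to 76.6% and SNRPA1 from 42.0% to 43.9%.

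Other genes lay over the exons of some members. In 7 of the 48, 10% or more of the exon bases were also in another annotated gene, and in 2 of them, SNRPD3 and U2AF1L4, that gene was on the same strand. Whether counting used strand is not given in the sources used here. The SNRPN transcript overlapped same-strand genes over 43.9% of its exon bases, and SNRPN itself, a paralog of SNRPB that is expressed from the paternal allele in brain, had 2, 1, 1 and 1 reads.

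The levels of the 48 genes spanned several orders of magnitude. Levels are given as RPKM, in which reads are scaled to library depth and to gene model length, so that genes can be set side by side. The mean over the 4 libraries ran from 1950 RPKM for SNRPD2 to 0.312 RPKM for LSM11. In all, 11 genes had a mean of at least 100 RPKM and 15 had a mean under 10. Reads of the 50 genes made up 1.03% to 1.13% of all counted reads, and SNRPD2 and SNRPB alone held 40% to 46.3% of the reads of the 48.

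Transcripts within most subfamilies were of very unequal level, also where the proteins sit in one complex. The exception was U2AF, where the ratio of the 2 tested genes was 2.19. The 7 Sm proteins form 1 ring, yet SNRPD2 was listed at a mean RPKM 58.6 times that of SNRPD1. In SF3, SF3B6 was at 501 RPKM and SF3A2 at 4.35, a ratio of 115. Among LSM1 to LSM8 the ratio of the highest, LSM4, to the lowest, LSM8, was 58.3. Between PRPF4 and PRPF40B, whose proteins act in different snRNPs, it was 35.5. LSM10 and LSM11, which sit side by side in the U7 snRNP, were at 252 and 0.312 RPKM, a ratio of 808. RPKM divides by gene model length, and the representative transcripts of SNRPD1 (4858 bases), LSM8 (12384) and LSM11 (6567) were longer than those of SNRPD2 (515), LSM4 (1704) and LSM10 (860). The part of transcript length in these ratios was not tested.

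**Figure D2:**
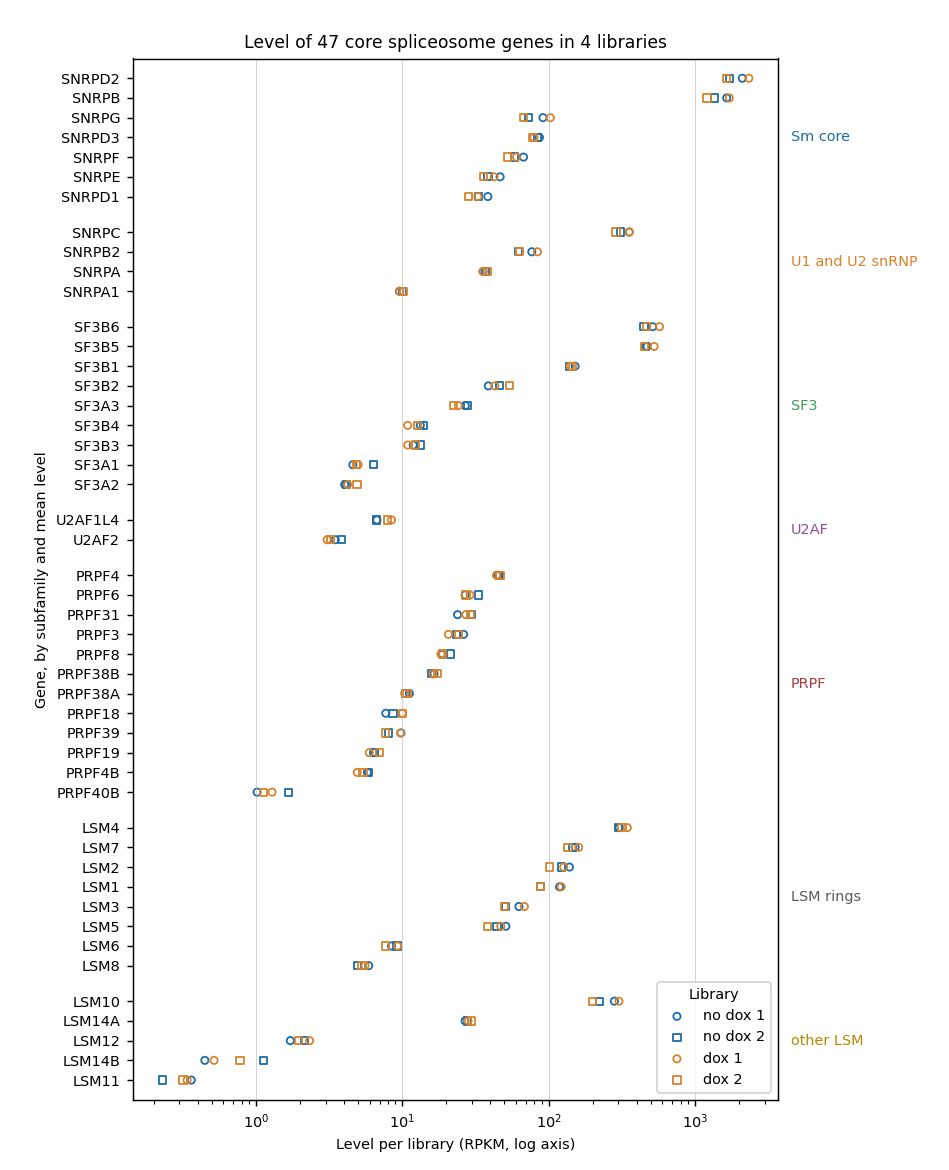
The level of 47 of the 48 tested genes in RPKM on a log axis, 1 point per library (blue, no dox; orange, dox; circle, replicate 1; square, replicate 2), ordered by subfamily and mean level. In every subfamily but U2AF the genes are spread far more widely than the 4 libraries of one gene. SNRPD2 and SNRPB stand apart at the top, at 1210 RPKM or more in all libraries.

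None of the 48 genes passed the threshold for a change with dox, which was an adjusted p of at most 0.05 (limma on voom-weighted counts, Benjamini-Hochberg over 16181 genes) with at least a 2-fold difference. Over all genes tested 6 passed, or 0.0371%. None of the 48 had an unadjusted p under 0.05 in either direction, where 4.59% of all genes tested were lower and 4.68% were higher at that level. edgeR and DESeq2 also called 0 of the 48, with 0 at an unadjusted p under 0.05. With the replicate number as a block in limma, 9 of the 48 (18.8%) were under 0.05 unadjusted, beside 20.2% of all genes. None was called in that fit, although SNRPD1 had an adjusted p of 0.0327 by limma, and its limits are given at the end. Because the data are from bulk RNA, fewer cells and less RNA per cell cannot be told apart.

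The fold changes were small and fell evenly on both sides. Of the 48 genes 24 were higher and 24 lower with dox, and the median log2 fold change was -0.0062, beside -0.0004 over all genes tested. The sign of so small a median is not firm, and it turned positive without no dox replicate 1 (0.0205), no dox replicate 2 (0.0036) or dox replicate 2 (0.0043). Single genes ran from -0.21 (SNRPD1) to 0.32 (PRPF18) on the log2 scale. The 95% interval of the fold change lay within 2-fold either way for 47 of the 48, against 12519 of all 16181 genes, and within 1.5-fold for 41, against 8239. The median SE was 0.13 over the 48 and 0.18 over all genes tested. Intervals of the 48 were thus mostly narrower, and these shares alone do not show that their levels were steadier. The exception at 2-fold was LSM14B, at 24 to 75 reads per library. By these intervals little room was left for a 2-fold change in the other 47, while the interval of each of the 48 included 0. The intervals do not cover reads shared with pseudogenes, so LSM12, SNRPA1 and SNRPG stay uncertain. That limit also touches SNRPE, SNRPF and SF3A3, whose pseudogene shares are given above. With pseudogene reads added to the gene, the log2 fold change was -0.15 for SNRPF and -0.19 for SF3A3.

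**Figure D3:**
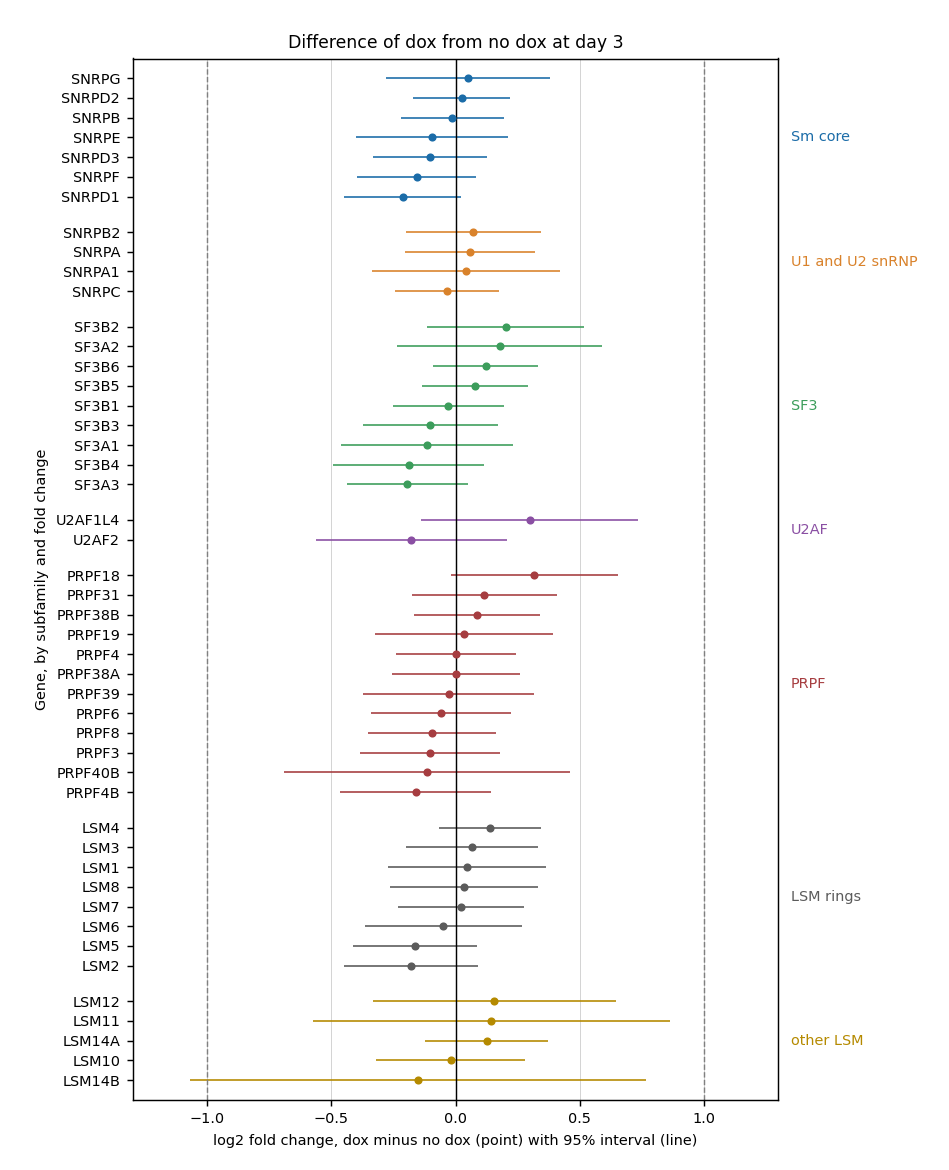
The log2 fold change (dox minus no dox, point) of 47 of the 48 tested genes, each with its 95% interval (line), by subfamily. Every interval shown crosses 0, and LSM14B alone has one that reaches a dashed line, which marks a 2-fold difference.

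The groups did not overlap in 16 genes, 8 with both dox samples lower and 8 with both higher. Over all genes tested, 19.1% were separated in the lower and 19.5% in the higher direction, so the counts among the 48 were close to the background. In 38 of the 48 the fold change was smaller than the larger of the differences between 2 replicates of a group, which held for 11807 of the 16181 genes tested. Replicate 1 lay above replicate 2 in both groups in 19 of the 48, and below it in both in 17. Many replicate differences thus ran the same way in both groups, which this comparison does not allow for.

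**Figure D4:**
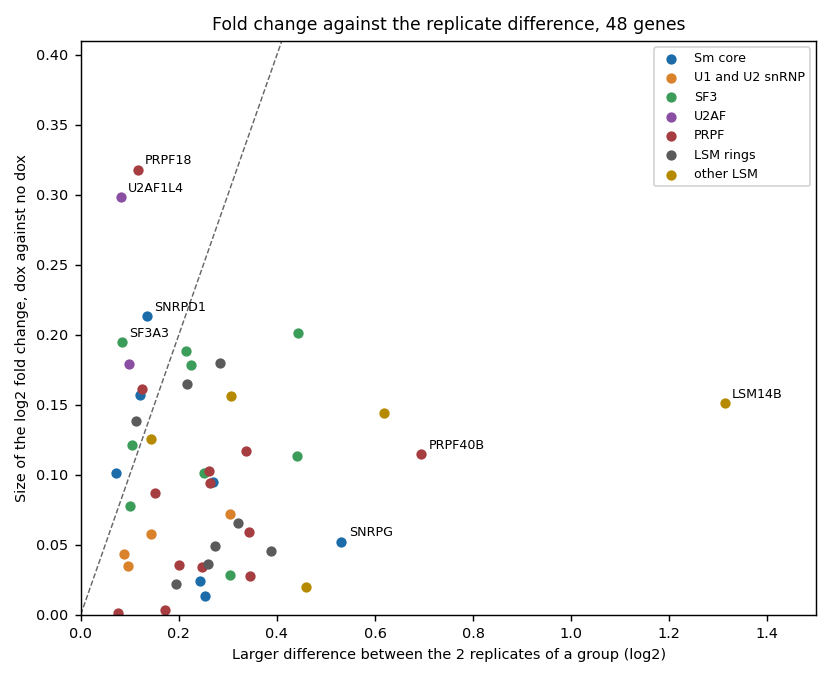
The size of the log2 fold change of each of the 48 genes against the larger of its 2 within-group replicate differences (log2), coloured by subfamily. The dashed line marks equal values; 38 genes lie below it, and PRPF18, U2AF1L4, SNRPD1 and SF3A3 are among the 10 above.

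The Sm core proteins, encoded by SNRPB, SNRPD1, SNRPD2, SNRPD3, SNRPE, SNRPF and SNRPG, form the ring on the spliceosomal RNAs. Of the 7, 5 were lower and 2 higher with dox, with a median log2 fold change of -0.09; none passed the test. Leaving out dox replicate 1 took the median to -0.21, while it lay at 0.03 without dox replicate 2 and at 0.02 without no dox replicate 1. SNRPD1, SNRPD3 and SNRPF were the members with both dox samples below both no dox samples.

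SNRPD1 had the lowest fold change of the 48. It encodes SmD1, which pairs with SmD2 as the ring is put together. It was listed at 38.5 and 33.4 RPKM without dox and at 32.9 and 28.4 RPKM with dox. Both dox samples lay below both no dox samples, the nearest of them narrowly. The log2 fold change was -0.21 ± 0.11 (SE; adjusted p = 0.595 by limma), with a 95% interval from -0.45 to 0.02. SNRPD1 is also a neighbour of the targeted gene. It lies at chr18:21612314-21633524 on the plus strand, and its end is 71.4 kb from the start of MIB1 at chr18:21704957-21870953. Whether Cas9 cutting at MIB1 has a part in the value of SNRPD1 was not tested.

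SNRPF, which encodes SmF, was listed at 67.5 and 58.8 RPKM without dox and at 60.4 and 52.3 with dox. In RPKM the groups overlapped, since dox replicate 1 lay above no dox replicate 2, whereas on the normalized scale of the test the dox values, 7.06 and 6.94 (log2), lay just below the no dox values, 7.21 and 7.10. Its log2 fold change was -0.16 ± 0.11 (SE; adjusted p = 0.711 by limma). SNRPD3 (SmD3) had a log2 fold change of -0.10 and SNRPE (SmE) one of -0.09.

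The most abundant Sm transcripts showed little difference between groups. SNRPD2 (SmD2) was listed at 2110 and 1730 RPKM without dox and at 2340 and 1640 with dox. The dox samples lay on either side of both no dox samples. Its log2 fold change was 0.02 ± 0.09 (SE; adjusted p = 0.961 by limma). SNRPB, which encodes SmB and SmB′, was at 1650 and 1370 RPKM without dox and 1720 and 1210 with dox, with a log2 fold change of -0.01 ± 0.10. For SNRPG (SmG), at 91.6 and 73.3 RPKM without dox and 103 and 67.4 with dox, the 2 dox samples were the highest and the lowest of the 4. Its log2 fold change of 0.05 ± 0.15 was far smaller than the difference of 0.53 (log2) between its dox replicates.

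The proteins particular to U1 and U2 are encoded by SNRPA and SNRPC (U1) and by SNRPA1 and SNRPB2 (U2). Their median log2 fold change was 0.05, with 3 higher and 1 lower, and in none of the 4 were the groups separated. It was smaller in edgeR (0.02), on the log2(RPKM + 1) scale (0.02) and with any library left out (0.0052 to 0.0208). SNRPC, which steadies the pairing of U1 RNA with the start of the intron, was the most abundant, at 356 and 312 RPKM without dox and 357 and 289 with dox. It had the lowest fold change of the 4 on the log2 scale, -0.03 ± 0.10. SNRPB2 had the highest, 0.07 ± 0.13, from 76.9 and 62.4 RPKM without dox and 84.0 and 63.6 with dox. In both genes the larger replicate difference within a group exceeded the difference between groups. SNRPA was at 0.06 ± 0.12 and SNRPA1, with the shared windows described above, at 0.04 ± 0.18.

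The SF3a complex (SF3A1, SF3A2 and SF3A3) and the SF3b complex (SF3B1 to SF3B6) bind the branch point region as parts of the U2 snRNP. Of the 9 genes 4 were higher and 5 lower with dox, with a median log2 fold change of -0.03 that became 0.09 when no dox replicate 2 was left out, and 0.07 when dox replicate 1 was. SF3B1, the large scaffold subunit and a gene recurrently mutated in myelodysplastic syndromes, was at 152 and 140 RPKM without dox and at 141 and 145 with dox. Both dox samples lay between the no dox samples in RPKM, whereas on the normalized scale of the test (log2) the dox samples, at 10.04 and 10.34, were the lowest and the highest of the 4. Its log2 fold change was -0.03 ± 0.10 (SE; adjusted p = 0.960 by limma), with a 95% interval from -0.25 to 0.19.

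SF3A3 had the lowest fold change of the SF3 genes. It was at 27.0 and 27.8 RPKM without dox and at 24.2 and 22.5 with dox, so the groups were apart by more than either pair of replicates. The log2 fold change was -0.19 ± 0.11 (SE; adjusted p = 0.641 by limma). SF3B2, which binds SF3B4, had the highest, at 38.8 and 46.5 RPKM without dox and 43.0 and 54.1 with dox. The groups overlapped, and the log2 fold change was 0.20 ± 0.15 (adjusted p = 0.722). SF3B6, a subunit of SF3b, was the most abundant of the 9, at 515 and 450 RPKM without dox and 574 and 466 with dox. On the normalized scale both its dox samples lay above both no dox samples, by a log2 fold change of 0.12 ± 0.10.

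The remaining SF3 genes lay on both sides of 0. SF3B5 (0.08) and SF3A2 (0.18) were separated upward on the log2 normalized scale and SF3B4 (-0.19) downward, while SF3A1 (-0.11) and SF3B3 (-0.10) overlapped. SF3A2, at 127 to 187 reads per library, and SF3A1, at 392 to 719, rest on fewer reads than the other subunits except SF3B4 (347 to 654).

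Of the U2AF genes, the large subunit U2AF2 and the small subunit paralog U2AF1L4 could be tested. U2AF2, which binds the polypyrimidine tract, was at 3.49 and 3.84 RPKM without dox and at 3.07 and 3.25 with dox. Both dox samples lay below, and the log2 fold change was -0.18 ± 0.18 (SE; adjusted p = 0.810 by limma). U2AF1L4 was at 6.71 and 6.70 RPKM without dox and at 8.46 and 7.97 with dox. Both dox samples lay above, by a log2 fold change of 0.30 ± 0.20 (adjusted p = 0.703). U2AF1L4 had 117 to 143 reads per library, and 24.8% of its exon bases lay under a same-strand readthrough gene with 20 and 10 reads without dox, against 6 in each dox library. The 2 genes thus pointed in opposite directions, each within its error.

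The 13 PRPF genes include factors that act with the U1 snRNP (PRPF39 and PRPF40B), in the tri-snRNP (PRPF3, PRPF4, PRPF6, PRPF8, PRPF31, PRPF38A), at its activation (PRPF4B, a kinase, and PRPF19, a ubiquitin ligase) or at the second step of splicing (PRPF18). The median log2 fold change was -0.03, with 6 higher and 7 lower, and it became 0.01 with GC and length trends removed and 0.03 without no dox replicate 2 or dox replicate 1. PRPF18 had the highest fold change of all 48 genes. It was at 7.73 and 8.65 RPKM without dox and at 10 RPKM in both dox samples, from 262 to 325 reads per library. Both dox samples were higher, and the log2 fold change was 0.32 ± 0.16 (SE; adjusted p = 0.569 by limma). Its 95% interval ran from -0.02 to 0.65. About 16% of its exon bases lay under FRMD4A on the opposite strand, which had 10 to 39 reads.

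PRPF8, the large U5 protein at the centre of the spliceosome, was at 18.9 and 21.4 RPKM without dox and at 18.4 and 18.8 with dox, with a log2 fold change of -0.09 ± 0.12 (SE; adjusted p = 0.864 by limma). On the normalized scale of the test its groups overlapped. PRPF4B had the lowest value of the PRPF genes, at 5.79 and 5.87 RPKM without dox and 4.93 and 5.40 with dox. Both dox samples lay below, and the log2 fold change was -0.16 ± 0.14 (adjusted p = 0.774). PRPF4, which binds PRPF3 in the U4/U6 snRNP, was the most abundant, at 45.4 and 46.0 RPKM without dox and 44.1 and 46.6 with dox. It did not move between the groups beyond its replicates, at 0.00 ± 0.11 on the log2 scale.

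The other PRPF genes had log2 fold changes between -0.11 (PRPF40B) and 0.12 (PRPF31). PRPF40B was the lowest of the 13 in level, at 76 to 142 reads per library, and 48.7% of its exon bases lay under other genes. For PRPF31 that share was 31.3%, with TFPT on the opposite strand at 332 to 484 reads. PRPF38B (0.09) was separated upward, and the others overlapped.

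LSM2 to LSM8 form the ring on U6 RNA in the nucleus, and LSM1 to LSM7 form the cytoplasmic ring that binds mRNA before it is decapped. Of the 8 genes 5 were higher and 3 lower with dox, with a median log2 fold change of 0.03 that turned to -0.01 with GC and length trends removed, to -0.0024 and -0.0031 in RPKM, and to -0.06 and -0.11 without no dox replicate 2 or dox replicate 1. LSM1, particular to the cytoplasmic ring, was at 119 and 87.9 RPKM without dox and at 122 and 88.7 with dox. LSM8, particular to the nuclear ring, was at 5.90 and 4.98 RPKM without dox and at 5.57 and 5.32 with dox. Neither differed between groups beyond its replicates, with log2 fold changes of 0.05 ± 0.15 for LSM1 and 0.04 ± 0.14 for LSM8. BAG4 lay on the opposite strand over part of LSM1, for a share of 38.0% of its exon bases, with 614 to 961 reads.

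Of the subunits common to both rings, LSM4 was the highest in level and in fold change. It was at 304 and 301 RPKM without dox and at 346 and 318 with dox. Both dox samples lay above both no dox samples. Its log2 fold change was 0.14 ± 0.10 (SE; adjusted p = 0.705 by limma). LSM2 and LSM5 lay at the lower end. LSM2 was at 139 and 122 RPKM without dox and 127 and 101 with dox, with overlapping groups and a log2 fold change of -0.18 ± 0.13. LSM5 was at 51.1 and 44.5 RPKM without dox and 47.2 and 38.2 with dox, with a log2 fold change of -0.16 ± 0.12. On the normalized scale the LSM5 dox samples lay below the no dox samples, the nearest pair by less than the rounding, at 7.09 and 6.87 against 7.20 and 7.09 (log2). LSM3 (0.07), LSM7 (0.02) and LSM6 (-0.05) overlapped.

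The LSM genes outside these rings had a median log2 fold change of 0.13 over 5 genes (-0.02 with pseudogene reads added), 3 higher and 2 lower, and they included the least certain values. LSM10 and LSM11 are subunits of the U7 snRNP, which trims histone mRNAs. LSM10 was at 282 and 224 RPKM without dox and 303 and 201 with dox, with a log2 fold change of -0.02 ± 0.14. LSM11 had 33 to 56 reads per library and a log2 fold change of 0.14 ± 0.34. LSM14A, a P-body protein, was separated upward at 0.13 ± 0.12. Its paralog LSM14B was counted 32 and 75 times without dox, against 24 and 43 with dox. The no dox replicates of LSM14B differed by 1.31 on the log2 scale, and its log2 fold change of -0.15 ± 0.43 had a 95% interval from -1.07 to 0.77. LSM12, which is not known as a splicing factor, was at 0.16 ± 0.23 for the gene alone and at -0.15 once the reads of LSM12P1 were added to it.

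Other spliceosome and RNA processing genes were taken from 7 lists, 107 genes in all, none of which belongs to the 48. With dox 38 were higher and 69 lower, with a median log2 fold change of -0.07. At an unadjusted p under 0.05, 7 were lower and 3 higher, beside 4.59% and 4.68% of all genes tested, and none had an adjusted p of at most 0.05. In U1, U2 and tri-snRNP proteins outside the name rule (27 genes) 3 were lower and 1 higher at that unadjusted level. The counts were 2 lower in the SMN complex and Sm methylation genes (17), 1 lower in histone mRNA 3′ end processing (8), 1 lower in the minor spliceosome (12) and 2 higher in the PRPF19 complex and catalytic steps (24). In the exon junction complex (9) and in decapping and mRNA decay (10) no gene reached that level.

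The gene of these lists with the smallest p was SF1, which reads the branch point before the U2 snRNP does. It was at 9.31 and 10.3 RPKM without dox and at 6.55 and 6.21 with dox. The groups were well apart, with a log2 fold change of -0.60 ± 0.14 (SE; adjusted p = 0.167 by limma). Its partner at the 3′ splice site, U2AF2, stood at -0.18 as given above. In the SMN complex, which loads the Sm ring onto the RNAs, GEMIN4 was at 8.94 and 8.80 RPKM without dox and 6.66 and 6.75 with dox (log2 fold change -0.37 ± 0.13, adjusted p = 0.366). PRMT5, which methylates Sm proteins before they are loaded, was at 26.7 and 28.6 RPKM without dox and 21.3 and 21.7 with dox (log2 fold change -0.32 ± 0.12, adjusted p = 0.433). Neither passed the threshold. By unadjusted p, CASP8AP2 (log2 fold change -0.56, adjusted p = 0.305 by limma) and LUC7L (-0.51, adjusted p = 0.355) came next after SF1. The 3 genes of these lists that were higher at an unadjusted p under 0.05 were PPIE (log2 fold change 0.27), SMNDC1 (0.30) and SYF2 (0.30).

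Cell cycle genes were looked at beside these comparisons. All 18 of the S and G2/M phase genes on the list had lower values with dox, with a median log2 fold change of -0.30, but none had an adjusted p of at most 0.05 (the smallest was 0.126 by limma). At an unadjusted p under 0.05, 10 of the 18 were lower, where 4.59% of all genes tested were. Relative to each gene's mean (log2), their median level was 0.14 in each library without dox, against -0.19 and -0.14 with it. Median levels of the 48 core genes on the same scale were -0.0039 and 0.0054 without dox and -0.0069 and -0.012 with dox. The epithelial keratins KRT8 and KRT18 were lower with dox, at log2 fold changes of -0.34 and -0.41 (adjusted p = 0.362 and 0.339 by limma). The epithelial markers EPCAM and CDH1 were higher, at 0.13 and 0.25 (adjusted p = 0.829 and 0.705 by limma). The part of the cell cycle genes or of the keratins in any value of the core genes was not tested.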

How the data were processed

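RNA-seq of 4 MIB1-iKO NCI-H838 samples (2 no dox, 2 dox, day 3) was analysed. Groups and replicate numbers came from the labels. The authors discarded ribosomal reads, used GSNAP for alignment to GRCh38, and tallied exonic reads per gene with HTSeqGenie. The deposited counts are raw whole numbers. The deposited RPKM values, made by the authors, are scaled to depth and gene model length, with a further factor per sample. The methods name a RefSeq annotation although the identifiers are Ensembl, and do not say which of 2 library kits was used.

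Symbols, positions and transcripts came from GENCODE release 44, which gave a symbol to 57532 of 58302 identifiers. The main test followed the study's methods: scaling by library size, quantile normalization, voom weights and limma 3.58.1 (R 4.3.3), two-sided, with Benjamini-Hochberg adjustment over the 16181 genes kept by filterByExpr of edgeR 4.0.16, with calls at a 2-fold difference and an adjusted p up to 0.05. With 2 samples against 2, an exact permutation test cannot go below p = 0.333, so none was used. The procedure was tested on simulated counts with changes far larger than those of the core genes. That test does not bear on differences as small as theirs. Alternatives used edgeR, DESeq2 1.42.0, other normalizations and filters, RPKM with pseudocounts of 0.1 and 1, GC and length trends, thinning to 15943025 reads, the replicate block, and leaving out each library. Adding pseudogene reads to the parent gene was chosen after seeing the data. Core genes were named by role, or for the highest or lowest fold change or the highest mean RPKM in their subfamily. The 8 with the smallest p, and any with an adjusted p of at most 0.05, were also named. Of the other lists SF1, CASP8AP2 and LUC7L were named for the smallest p, and GEMIN4 and PRMT5 for the smallest in the SMN list. PPIE, SMNDC1 and SYF2 were named as the higher genes at an unadjusted p under 0.05. The remaining core genes are given by value only, and 1 tested core gene, included in all counts and medians, is not reported here. The members, lists and tests were chosen with earlier results of these data known. Depth was 15943025 to 24398411 reads per library. Counts of 0 allow up to 3 reads, for counting error only, since PCR copies are not independent molecules.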

Additional observations from a re-analysis of the deposited data

How the results depend on the processing

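Across 16 alternatives no core gene was called. With no filter and in both RPKM fits no gene at all had an adjusted p of at most 0.05. Those fits could therefore not have called a core gene, nor could the fits without a library, as described below. Of 23 named genes 11 kept their sign in every alternative (LSM2, LSM4, LSM5, PRPF18, PRPF4B, SF3A3, SF3B6, SNRPD1, SNRPF, U2AF1L4 and U2AF2). The count at an unadjusted p under 0.05 was 0 lower and 0 higher, and moved to 1 higher with no filter beyond 1 read, to 1 lower and 1 higher with GC and length trends removed, to 1 higher after thinning, and to 5 lower and 4 higher with the replicate block. These are 2.08%, 4.17%, 2.08% and 18.8% of the 48, beside 7.26%, 11.4%, 9.18% and 20.2% of all genes in the same fits. With that block SNRPD1 had an adjusted p of 0.0327 (log2 fold change -0.2121) and no other core gene had one of at most 0.05, while over all genes 1154 did, against 11 without it. The labels do not say what a replicate number marks, and the block leaves 1 residual degree of freedom per gene. The difference of replicate 1 from replicate 2 in the no dox group correlated with that in the dox group at r = 0.571 over the 48 genes and 0.134 over all genes tested; genes are not independent, and no p is given. The median log2 fold change of the 48, -0.0062, was -0.0159 in edgeR, -0.0234 in voom with TMM, -0.0152 with library size only, -0.0298 and -0.0296 with RPKM at pseudocounts of 0.1 and 1, -0.0137 with pseudogene reads added, and -0.0438 to 0.0205 when a library was left out. PRPF4, at 0.0033, turned to -0.0047 in edgeR, -0.0060 in voom with TMM, and -0.0112 and -0.0110 in RPKM. LSM10 turned to 0.0003 in DESeq2, SNRPD2 to -0.0291 without GC and length trends, and LSM12 to -0.1463 with pseudogene reads added. Left-out libraries turned the sign of 12 named genes, which then ranged from -0.2446 to 0.2134 (LSM10), -0.0087 to 0.3044 (LSM12), -0.8380 to 0.4607 (LSM14B), -0.0843 to 0.0927 (PRPF4), -0.2297 to 0.0320 (PRPF8), -0.1819 to 0.1278 (SF3B1), -0.0174 to 0.4112 (SF3B2), -0.1532 to 0.1061 (SNRPB), -0.0770 to 0.2286 (SNRPB2), -0.0832 to 0.0144 (SNRPC), -0.1030 to 0.1489 (SNRPD2) and -0.2089 to 0.3175 (SNRPG). In these fits the lone sample of a group is assumed to vary like the other group. MIB1 stayed lower in all, from -2.9980 to -1.3419, but its adjusted p was 0.613 with no filter, 0.108 and 0.0962 in RPKM, and 0.721 or more without a library, where no gene of the 16181 passed. The cause of these moves was not tested.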
